A study of Mus musculus with 2 samples.

Results

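The part of the TCRβ repertoire examined was that of 7 variable genes of the mouse, TRBV14, TRBV17, TRBV21, TRBV23, TRBV24, TRBV29 and TRBV30, which lie in the middle and downstream stretch of the upstream V cluster on chromosome 6. A clonotype, a group of reads with the same CDR3, was counted for one of these genes when that gene was listed first among its V hits. The 7 genes held 191 of 1640 TCRβ clonotypes in the thymus library and 247 of 2241 in the spleen library, where 26 TRBV genes were found in each library. None of the 7 was absent from either tissue. Of the 7, 6 lay below the median TRBV gene by clonotypes in both libraries, and TRBV17 lay above it. The 95% interval of TRBV17 in both libraries, and that of TRBV29 in the spleen, contained the median. Both genes were above the median by reads. In the thymus the TRBV29 interval (1.59 to 3.02%) lay below the median of 4.05%. Without its leading clonotype TRBV29 held 0.494% of thymus reads, against a median of 0.880%. The word "sparse" thus described TRBV17 less well than the other 5 genes, and TRBV29 less well in the spleen only.

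A TCRβ chain is made when a D segment is joined to a J segment and a V gene is then joined to the DJ joint, with bases trimmed and added at both joints. The joint, called CDR3, makes contact with peptide and MHC, and the V gene supplies the rest of the variable domain. A joint that loses the reading frame, or a V gene that is itself a pseudogene, gives no receptor chain, although the rearranged allele may still be transcribed in a T cell whose other allele is functional. The J segments lie in a pair of clusters, TRBJ1 and TRBJ2, each behind its own D segment.

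The cells were iT cells, T cells regenerated in mice from iR9-ESC. These mouse embryonic stem cells, of the C57BL/6 strain and CD45.2, carry in the Rosa26 locus a cassette from which Runx1 and Hoxa9 are expressed under doxycycline. They were differentiated in culture, and the blood progenitors were transplanted into sublethally irradiated adult B-NDG mice (CD45.1+, strain NOD-Prkdc Scid IL2rg tm1/Bcgen), which lack T, B and NK cells of their own. Both libraries share this origin and differ in tissue: 15000 CD4SP and CD8SP cells were sorted at week 6 after transplantation. The paper's results describe the sorted cells of both tissues as naive. Its methods give the naive gate CD62L+CD44- for the spleen and list no such markers for the thymus. Whether the gates differed is therefore not settled. Whether the 2 libraries came from the same mouse, and how many mice were pooled, is not given in the sources used here. The thymus library held 1782199 TCRβ reads and the spleen library 2765086, so that 3 reads stood for 1.68e-04% and 1.08e-04% of them. With 1 library per tissue there was no replicate check of any difference between tissues and no test was made of one. Intervals are 95% Wilson intervals and cover counting error only, since no molecular identifiers were stated.

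The 3′ ends of the 7 germline genes show how they differ where the joint is made. Each is printed from 5 codons before the CDR3 cysteine to the end of 1 annotated transcript per gene (GENCODE, GRCm38, plus strand). The codon 2 places before that cysteine is in capitals. The TRBV21 transcript ends at 41203042, short of the end of the annotated gene at 41203044.
TRBV14, chr6:41135586-41135616: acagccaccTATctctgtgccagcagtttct
TRBV17, chr6:41163525-41163556: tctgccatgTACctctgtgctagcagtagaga
TRBV21, chr6:41203013-41203042: tcagctgtgTACttctgtgctagcagtcaa
TRBV23, chr6:41216495-41216526: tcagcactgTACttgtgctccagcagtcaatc
TRBV24, chr6:41218526-41218557: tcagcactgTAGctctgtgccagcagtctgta
TRBV29, chr6:41271850-41271881: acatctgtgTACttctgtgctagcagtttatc
TRBV30, chr6:41281962-41281990: agcagtatcTATttctgtagttctagaga
In 6 of the genes the capitals read TAT or TAC, both codons for tyrosine. In TRBV24 they read TAG, a stop codon, and it was the 1 in-frame stop of its V exon before the cysteine; the V exons of the other 6 genes had 0. GENCODE classes TRBV24 as a V pseudogene and the other 6 as V genes. The RefSeq gene table for GRCm38 differs, with TRBV29 as the pseudogene and TRBV24 as a V segment. The transcript examined for TRBV21 had no in-frame start codon in its first exon, against 1 in each of those of the other 6 genes. Other transcripts were not examined. The stop codon of TRBV24 lies outside CDR3, and the deposited clonotype sequences span CDR3 only, so a TRBV24 clonotype called productive from its CDR3 was not checked at that position.

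On chromosome 6 the genes stood, in order, 398 kb (TRBV14), 370 kb (TRBV17), 330 kb (TRBV21), 317 kb (TRBV23), 315 kb (TRBV24), 261 kb (TRBV29) and 251 kb (TRBV30) upstream of TRBD1. Together they made up 11.6% of thymus TCRβ clonotypes (10.2 to 13.3%) and 11% of those of the spleen (9.79 to 12.4%), intervals that overlap. Of the reads they made up 6.29% in thymus (6.26 to 6.33%) and 2.55% in spleen cells (2.53 to 2.57%). Their share of reads was thus below their share of clonotypes in both libraries, and the gap was wider in the spleen.

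TRBV17 was the most used of the 7, with 71 clonotypes in each library. These were 4.33% of thymus clonotypes (3.45 to 5.43%) and 3.17% of spleen clonotypes (2.52 to 3.98%), rank 12 among the 26 genes in both. The median TRBV gene held 4.05% and 3.08%, within both intervals. TRBV29 followed with 36 thymus clonotypes, 2.20% (1.59 to 3.02%), and 68 spleen clonotypes, 3.03% (2.40 to 3.83%). TRBV24 held 32 and 44 clonotypes, 1.95% (1.39 to 2.74%) and 1.96% (1.47 to 2.63%), almost the same share in both tissues. The intervals of TRBV24 and TRBV29 overlapped in both libraries, in the spleen only between 2.40% and 2.63%. Their order was not tested.

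The other 4 genes were rarer. TRBV14 had 18 thymus clonotypes, 1.10% (0.695 to 1.73%), and 34 spleen clonotypes, 1.52% (1.09 to 2.11%). TRBV21 had 21 and 11, 1.28% (0.839 to 1.95%) and 0.491% (0.274 to 0.877%), with overlapping intervals. TRBV23 had 11 and 16, 0.671% and 0.714%, and 0.258% and 0.326% when clonotypes with a weak V alignment (score under 100), described further on, were left out. TRBV30 was the rarest member, with 2 thymus clonotypes, 0.122% (0.0334 to 0.444%), and 3 spleen clonotypes, 0.134% (0.0455 to 0.393%). It ranked 25 of 26 in both libraries.

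**Figure D1:**
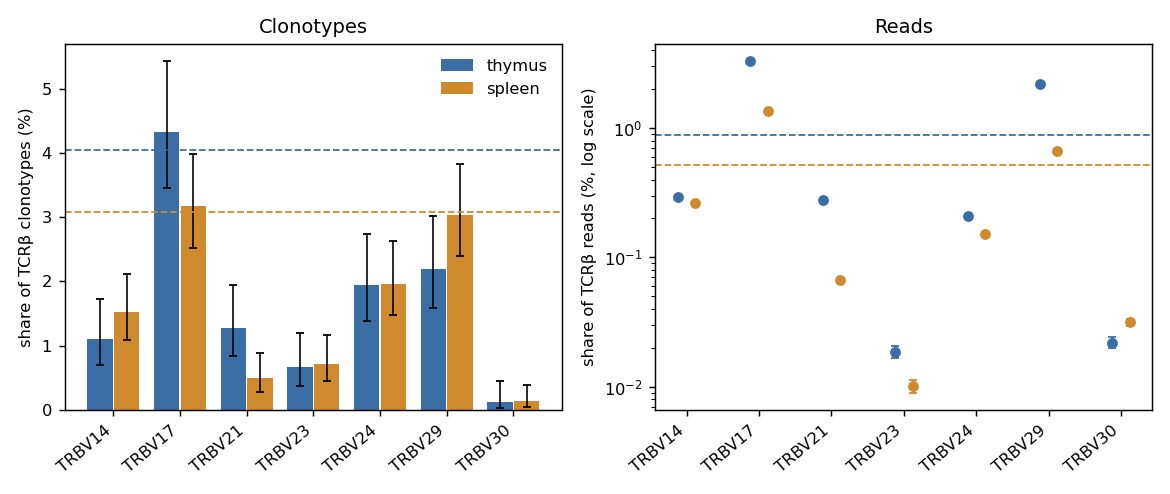
Share of TCRβ clonotypes (left, linear axis from 0) and of TCRβ reads (right, log axis) held by each of the 7 genes, 1 thymus and 1 spleen library; bars and points are shares, error bars are 95% Wilson intervals and dashed lines are the median TRBV gene of each library. TRBV17 alone is above the median by clonotypes, TRBV17 and TRBV29 are above it by reads, and TRBV23 and TRBV30 lie more than 10 times below it by reads.

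By reads, TRBV17 held 3.29% of the thymus library and 1.36% of the spleen library, and TRBV29 held 2.18% and 0.665%. TRBV21 held 0.276% and 0.0665%. TRBV14 held 0.291% and 0.262%, and TRBV24 0.208% and 0.152%. TRBV23 held 0.0185% and 0.0101%. TRBV30 was the one member with the larger share in the spleen, 0.0219% against 0.0315%. The ratio of thymus to spleen was thus 2.47 for the 7 genes together and ranged from 0.696 (TRBV30) to 4.14 (TRBV21).

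These read shares rest on few clonotypes. One TRBV13-3 clonotype held 56.2% of spleen TCRβ reads and one TRBV19 clonotype 26.7% of thymus reads. With each library's largest clonotype left out, the 7 genes held 8.58% of what remained in the thymus and 5.81% in the spleen library, a ratio of 1.48. On that scale TRBV14 (0.397% and 0.599%), TRBV24 (0.284% and 0.347%) and TRBV30 (0.0298% and 0.0718%) were higher in the spleen, while TRBV17 (4.49% and 3.11%), TRBV21 (0.376% and 0.152%) and TRBV29 (2.98% and 1.52%) stayed higher in the thymus. The direction for TRBV14 and TRBV24 therefore turns with the denominator.

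The most abundant clonotype of each member is printed with the bases between the aligned V and J ends, that is the D segment and added bases, in capitals; lower case is V sequence before them and J sequence after them. The first set is the leading clonotype of the thymus library.
TRBV14 with TRBJ2-7: tgtgccagcagtCGAtatgaacagtacttc
TRBV17 with TRBJ1-2: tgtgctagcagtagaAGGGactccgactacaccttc
TRBV21 with TRBJ1-2: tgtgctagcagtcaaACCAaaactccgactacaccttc
TRBV23 with TRBJ2-7: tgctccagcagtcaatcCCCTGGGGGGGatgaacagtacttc
TRBV24 with TRBJ1-5: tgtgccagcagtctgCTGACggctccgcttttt
TRBV29 with TRBJ1-1: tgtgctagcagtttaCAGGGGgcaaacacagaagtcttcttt
TRBV30 with TRBJ2-3: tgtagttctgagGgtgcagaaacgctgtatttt
In the spleen TRBV17 and TRBV29 were led by these same clonotypes, and the other 5 genes by the following ones.
TRBV14 with TRBJ2-3: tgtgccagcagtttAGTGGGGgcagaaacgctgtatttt
TRBV21 with TRBJ2-1: tatgctgagcagttcttc
TRBV23 with TRBJ2-3: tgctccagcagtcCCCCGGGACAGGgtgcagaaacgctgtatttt
TRBV24 with TRBJ2-5: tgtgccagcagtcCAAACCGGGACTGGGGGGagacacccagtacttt
TRBV30 with TRBJ2-7: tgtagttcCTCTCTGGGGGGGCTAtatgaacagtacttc

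In the thymus TRBV29 rested mostly on a single clonotype. Its leading clonotype, joined to TRBJ1-1 through bases of TRBD1, had 30274 reads in the thymus, 77.8% of the gene's reads there and 1.70% of all TCRβ reads (1.68 to 1.72%). In the spleen it had 1961 reads, 10.7% of the gene's reads. Without the leading clonotype of each library, TRBV29 held 0.494% of thymus reads and 0.595% of spleen reads, so the higher thymus share of this gene came from 1 clonotype. The leading TRBV17 clonotype had 22291 reads in the thymus, 38% of the gene, and 11294 in the spleen, 30.0%. Without it TRBV17 still held 2.07% of thymus reads and 0.957% of spleen reads.

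The leading TRBV14 clonotype of the thymus had 1122 reads there and 266 in the spleen, while that of the spleen had 1816 reads there and 549 in the thymus. TRBV14 was thus led by different clonotypes, each present in both tissues. The leading TRBV21 clonotype of the thymus was out of frame and had 2212 reads, 45.0% of the gene, against 205 in the spleen. The leading TRBV24 clonotypes were small, 583 thymus reads and 393 spleen reads, 15.7% and 9.34% of that gene. The leading TRBV23 clonotypes had 163 reads (thymus) and 124 reads (spleen), and those of TRBV30 had 209 and 449. None of the leading TRBV23 and TRBV30 clonotypes was found in the other library.

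**Figure D2:**
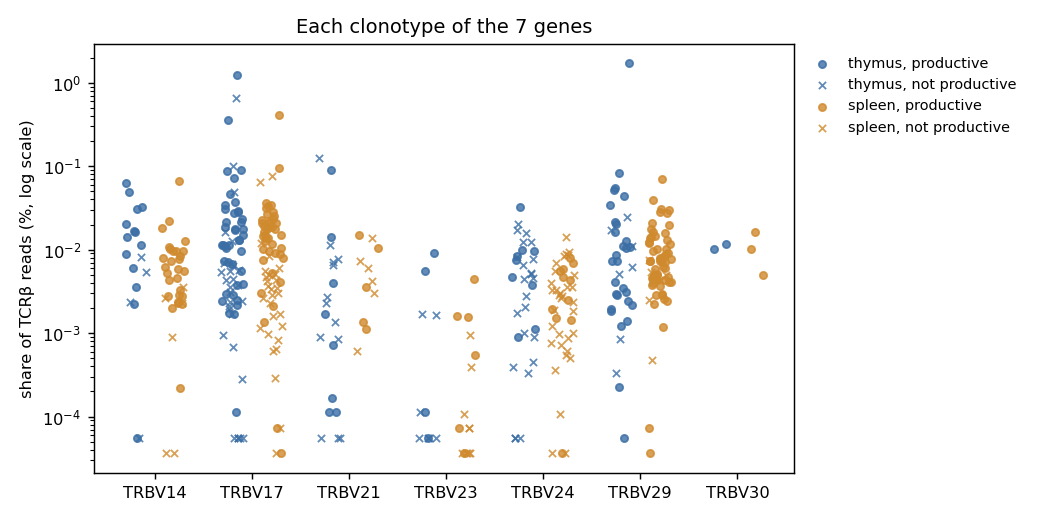
Each point is 1 clonotype of the 7 genes, placed by its share of the library's TCRβ reads (log axis), in blue for the thymus and orange for the spleen; circles are productive and crosses are not productive. The largest points are the thymus clonotypes of TRBV29 (1.70%) and TRBV17 (1.25%), and TRBV24 shows mostly crosses in both tissues.

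A productive clonotype had a CDR3 without frameshift or stop codon. Among the 7 genes 108 of 191 thymus clonotypes were productive, 56.5% (49.5 to 63.4%), and 154 of 247 spleen clonotypes, 62.3% (56.2 to 68.2%). In the other TRBV genes the shares were 74.9% (1085 of 1449) and 77.8% (1552 of 1994). The members were lower in both libraries (two-sided Fisher's exact test, adjusted p = 6.25e-07 in each, Benjamini-Hochberg over the 6 Fisher tests made; clonotypes were taken as independent). Of the members' non-productive clonotypes 77 in the thymus and 88 in the spleen had a frameshift, and 6 and 5 had only a stop codon.

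TRBV24, the GENCODE pseudogene, had the lowest productive share. In the thymus 9 of 32 of its clonotypes were productive, 28.1% (15.6 to 45.4%), and in the spleen 11 of 44, 25% (14.6 to 39.4%). In the other 6 members together 62.3% (99 of 159) and 70.4% (143 of 203) were productive. The difference passed the test in both libraries (Fisher's exact test, adjusted p = 0.00104 in the thymus and 1.97e-07 in the spleen). With the RefSeq class in its place, TRBV29 would be the pseudogene and the direction turns, since TRBV29 was productive in 29 of 36 thymus clonotypes, 80.6% (65.0 to 90.2%), and 59 of 68 spleen clonotypes, 86.8% (76.7 to 92.9%).

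The 6 genes that GENCODE lists as functional were not alike. TRBV14 was productive in 14 of 18 and 28 of 34 clonotypes, 77.8% and 82.4%, close to TRBV29. TRBV30 was productive in all of its 2 and 3 clonotypes. TRBV17 was productive in 42 of 71 in both libraries, 59.2% (47.5 to 69.8%). TRBV21 was productive in 8 of 21, 38.1% (20.8 to 59.1%), and 5 of 11, 45.5% (21.3 to 72.0%), and TRBV23 in 4 of 11, 36.4% (15.2 to 64.6%), and 6 of 16, 37.5% (18.5 to 61.4%). The intervals of TRBV21 and TRBV23 overlap that of TRBV24, and differences between these 3 genes were not tested. Without its clonotypes of low V score TRBV23 was productive in 2 of 4, 50% (15 to 85%), and 4 of 7, 57.1% (25 to 84.2%). With TRBV24 left out, the pooled share of the remaining 6 members was still below that of the other TRBV genes. The unadjusted Fisher's exact test gave p = 8.78e-04 in the thymus and 0.0222 in the spleen. The 6 genes did not share this direction. In both libraries TRBV17, TRBV21 and TRBV23 were below the other TRBV genes, and TRBV14, TRBV29 and TRBV30 were above them. The test was not repeated with TRBV17, or the clonotypes of low V score, left out as well.

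**Figure D3:**
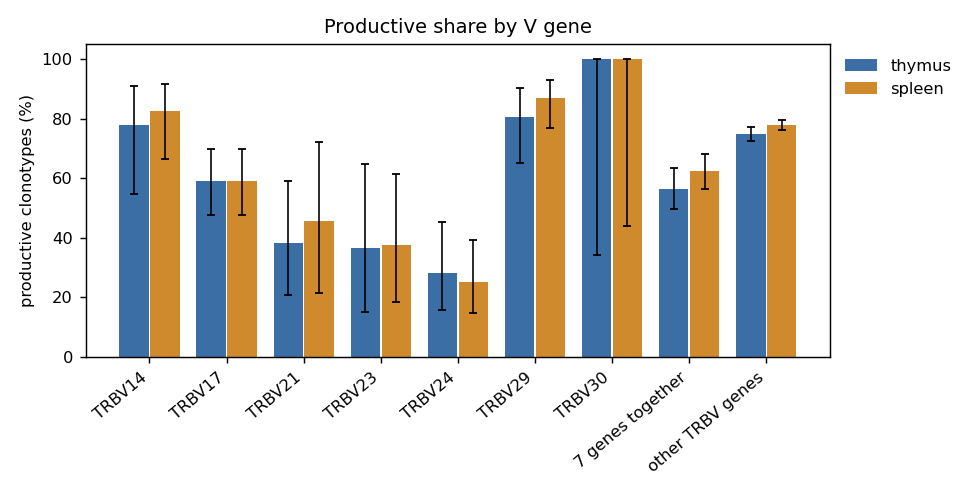
Productive clonotypes as a percentage of the clonotypes of each gene, of the 7 genes together and of the other TRBV genes, in 1 thymus and 1 spleen library; error bars are 95% Wilson intervals. TRBV24 is lowest at 28.1% and 25%, TRBV14 and TRBV29 stand near the other TRBV genes, and TRBV30 rests on 2 and 3 clonotypes.

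Weighted by reads, productive clonotypes made up 79.6% of the members' thymus reads and 83.4% of their spleen reads, against 92.4% and 93.2% in the other genes. A single clonotype held 28.5% of the other genes' thymus reads, and another 57.6% of their spleen reads. The comparison by reads was not repeated without these 2 clonotypes, so it may rest on them. For TRBV29 the share was 97.0% and 94.2%, for TRBV14 94.5% and 96.4%, and for TRBV17 72.5% and 83.2%. TRBV24 stayed low, at 37.7% and 28.1%. The leading non-productive TRBV17 clonotype, with TRBJ1-1 and no base between V and J, had 11741 thymus reads, 72.7% of the gene's non-productive reads, and 2137 spleen reads, 33.8% of them:
TRBV17 with TRBJ1-1, out of frame: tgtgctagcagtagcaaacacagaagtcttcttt

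The J partners of the members leaned to the TRBJ1 cluster in the thymus. There 87 of 191 member clonotypes used a TRBJ1 gene, 45.5% (38.6 to 52.6%), against 34.0% (492 of 1449) in the other TRBV genes (Fisher's exact test, adjusted p = 0.00257). In the spleen the shares were 42.1% (104 of 247, 36.1 to 48.3%) and 38% (758 of 1994), a difference that did not pass the test (Fisher's exact test, adjusted p = 0.213). The difference between the tissues was not tested. Among productive clonotypes alone the thymus difference was 1.65 percentage points (unadjusted Fisher's exact p = 0.752).

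TRBJ1-2 was the leading partner in the thymus, with 52 member clonotypes, 27.2%, against 21.3% in the other genes. It led for TRBV17 (20 of 71), TRBV21 (8 of 21), TRBV23 (5 of 11), TRBV24 (8 of 32) and TRBV29 (10 of 36), and TRBV14 was led by TRBJ2-3 (4 of 18). Both TRBV30 clonotypes used TRBJ2-3. Only 17 of the 52 TRBJ1-2 clonotypes of the members were productive, 32.7% (21.5 to 46.2%), against 76.4% (71.3 to 80.8%) of the 309 in the other genes. Of the 52, 5 were longer forms that repeat a TRBJ1-1 clonotype, described further on, and 0 of these 5 were productive. Among the 309 there was 1 such longer form. By gene, 9 of the 20 with TRBV17, 6 of the 10 with TRBV29, 1 of the 8 with TRBV21, 1 of the 5 with TRBV23 and 0 of the 8 with TRBV24 were productive.

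In the spleen TRBJ2-3 led instead, with 44 member clonotypes, 17.8%, against 11.6% in the other genes. TRBV29 held 20 of these, 29.4% of its clonotypes, and TRBV23 held 9 of its 16. TRBV17 was led again by TRBJ1-2 (15 of 71), TRBV24 and TRBV21 by TRBJ2-1 (10 of 44 and 4 of 11), and TRBV14 by TRBJ2-1 and TRBJ2-7 (7 each of 34). The 3 TRBV30 clonotypes used TRBJ2-1, TRBJ2-5 and TRBJ2-7, so that no TRBV30 clonotype of either library used the TRBJ1 cluster. TRBV14 used TRBJ1 in 5 of 18 clonotypes, 27.8% (12.5 to 50.9%), and 9 of 34, 26.5% (14.6 to 43.1%), intervals that contain the shares of the 7 genes together. The spleen TRBJ1-2 clonotypes of the members were productive in 18 of 41 cases, 43.9% (29.9 to 59%), and those of the other genes in 77.1% (72.4 to 81.2%).

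**Figure D4:**
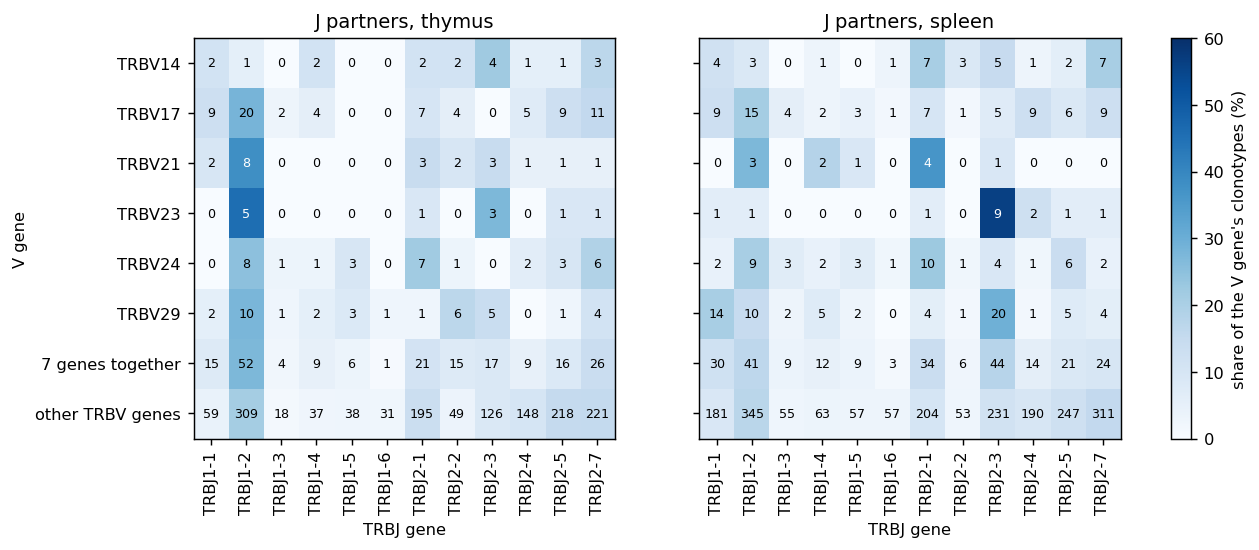
Numbers of clonotypes of each V gene (rows) with each TRBJ gene (columns) in the thymus (left) and the spleen (right), shaded by the share of that V gene's clonotypes; TRBV30, with 2 and 3 clonotypes, is left out as a row of its own. TRBJ1-2 is the darkest column of the thymus panel, while TRBJ2-3 with TRBV29 (20) and with TRBV23 (9) stands out in the spleen panel.

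The non-member genes with the most similar TRBJ profile to the 7 genes, over 24 shares (12 TRBJ genes in each library), were TRBV19 (Pearson's r = 0.88), TRBV31 (0.85) and TRBV20 (0.82). These are descriptions across J genes, and the shares come from the same 2 libraries.

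The median CDR3 of the members was 42.0 bases long in both libraries, as in the other TRBV genes. A D gene was assigned in 119 of 191 member clonotypes in the thymus and 172 of 247 in the spleen. TRBV29 had mostly the first D segment, with TRBD1 in 19 of 25 assigned clonotypes in the thymus, 76.0%, and in 49 of 57 in the spleen, 86.0%. In the 7 genes together TRBD1 made up 52.9% and 65.1% of assigned D genes, and in the other genes 40.1% and 54.9%. Where D was assigned, the median number of added bases at both joints was 3 in thymus and 2 in spleen clonotypes of the members, and 2 in both libraries for the others.

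Many CDR3 ends of the members recurred with other V genes, as did many of those of the other TRBV genes. In the ends printed below, most of the bases are J sequence. The last 25 bases of CDR3 were identical to those of a clonotype with another V gene of the same library in 111 of 191 member clonotypes of the thymus, 58.1% (51.0 to 64.9%), and 141 of 247 of the spleen, 57.1% (50.9 to 63.1%). In the other TRBV genes this held for 53.0% and 49.2%. TRBV24 reached 75.0% and 68.2%, and TRBV23 reached 81.8% (9 of 11) and 81.2% (13 of 16). Most of these TRBV23 clonotypes had a weak V alignment, described further on. The ends that the most members shared are printed with the bases before the J alignment in capitals; they were chosen after their counts were seen.
thymus, TRBJ1-2: GGGACAaaactccgactacaccttc
thymus, TRBJ2-5: AGGGAAGAGagacacccagtacttt
spleen, TRBJ2-3: ACAGGgtgcagaaacgctgtatttt
spleen, TRBJ1-2: GACAgcaaactccgactacaccttc
spleen, TRBJ1-1: GGCAgcaaacacagaagtcttcttt
The thymus TRBJ1-2 end was found in 48 clonotypes of 18 V genes, 5 of them with TRBV17, TRBV23, TRBV24 or TRBV29, and 0 of those 5 were productive against 37 of all 48. The spleen TRBJ2-3 end was found in 70 clonotypes of 15 V genes, and 20 of them belonged to the members, 12 to TRBV29 alone. It accounts for 12 of the 20 TRBJ2-3 clonotypes of TRBV29 in that library. The spleen TRBJ1-1 end was productive in 12 of 12 member clonotypes, 7 of TRBV29, 4 of TRBV17 and 1 of TRBV14. The spleen TRBJ1-2 end was found in 11 member clonotypes and was productive in 1 of 4 with TRBV17, 1 of 4 with TRBV24, 2 of 2 with TRBV29 and the 1 with TRBV14, so the same end occurred in and out of frame.

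Most TRBV23 clonotypes rested on 1 or 2 reads. In the thymus 7 of the 11, and in the spleen 9 of the 16, had a V alignment score under 100, against medians of 1153 and 1190.2 over the members, and all 16 shared a stretch of 29 bases, capitalised in this example with TRBJ1-2 (2 reads).
TRBV23 with TRBJ1-2: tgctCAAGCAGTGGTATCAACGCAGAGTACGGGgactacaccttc
Most of this stretch is known from the template-switching oligo of SMART cDNA kits, the chemistry of the kit used here. The stretch was also present in 1 TRBV14 clonotype of the spleen and in 58 and 49 clonotypes of the other TRBV genes, 47 and 32 of them TRBV16, with at most 7 reads each. Without these clonotypes TRBV23 kept 4 clonotypes in the thymus and 7 in the spleen, with 321 and 266 reads, and 2 and 4 of them were productive. Of its spleen clonotypes with TRBJ2-3, 7 of 9, and 3 of its 5 thymus clonotypes with TRBJ1-2 carried the stretch, so the J partners of TRBV23 given above are mostly those of the stretch.

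TRBV21 also held a clonotype with a weak V assignment. The 18-base CDR3 that led it in the spleen (tatgctgagcagttcttc) lay wholly within the TRBJ2-1 alignment, had a V score of 52.1 there and had 1594 thymus and 412 spleen reads. Clonotypes with V scores under 100 made up 32.5% and 22.4% of TRBV21 reads. Productive clonotypes made up 40.1% of TRBV21 reads in the thymus and 11.3% without those of low score, and 47.5% and 32.4% in the spleen. By clonotypes the productive share of TRBV21 was then 38.9% and 40%.

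Some long clonotypes repeated a shorter one and read on beyond it. In 5 pairs of member clonotypes in the thymus and 2 in the spleen, the longer CDR3 began with the whole CDR3 of a TRBJ1-1 clonotype and ended in TRBJ1-2. The longer one was longer by 137 bases in each of these pairs, which is the distance between the CDR3 ends of TRBJ1-1 and TRBJ1-2 in GRCm38. TRBV17 gave 6 of the 7 pairs and TRBV29 gave 1. For the out-of-frame TRBV17 clonotype the longer form had 867 thymus and 335 spleen reads, 6.88% and 13.6% of both forms together. The other TRBV genes had 1 such thymus pair and 6 such spleen pairs, with the same distance. These pairs were looked for after the long clonotypes had been seen. Each longer form was counted as a clonotype of its own in the productive, TRBJ1 and TRBJ1-2 shares. The Fisher tests also counted it so, although they take clonotypes as independent, and no test was repeated without the longer forms.

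In both tissues 49 member clonotypes were found with the same CDR3 bases, each with the same J gene. They were 25.7% (20 to 32.3%) of member clonotypes in the thymus (49 of 191), and 1 more was listed under TRBV26 in the thymus and TRBV24 in the spleen, which makes 50 of 247 there, 20.2% (15.7 to 25.7%). In the other TRBV genes 23.5% and 17% were shared. TRBV17 gave 23 of the shared clonotypes, 32.4% of its clonotypes in each library, and TRBV30 gave 0. The shared clonotypes held 82.4% of the members' thymus reads and 46.9% of their spleen reads, against 90.6% and 89.8% in the other genes. The largest clonotype of the other genes held 28.5% of their thymus reads and 57.6% of their spleen reads. The comparison was not repeated without it. Of the 49, 28 were productive, 57.1%, against 83.2% of shared clonotypes of the other genes. The 49 included 2 of the longer TRBV17 forms described above, whose shorter TRBJ1-1 forms were also shared. They also included 2 TRBV23 clonotypes with the 29-base stretch. The longer TRBV17 forms and these TRBV23 clonotypes were all non-productive.

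The 3 shared clonotypes with the most reads in the library where they had fewer were all TRBV17. The first and the third are the leading TRBJ1-2 clonotype and the out-of-frame TRBJ1-1 clonotype printed above. The second, with TRBJ2-7, had 6380 thymus and 2621 spleen reads.
TRBV17 with TRBJ2-7: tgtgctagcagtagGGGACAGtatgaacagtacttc
As a share of TCRβ reads, 35 of the 49 were larger in the thymus and 14 in the spleen. Read counts, not adjusted for the larger spleen library, were higher in the thymus for 27 and in the spleen for 20. The split by share depends on the denominator, since 56.2% of the spleen reads came from 1 TRBV13-3 clonotype. It was not repeated without the largest clonotype of each library. Only 7 of the 49 had just 1 or 2 reads in one of the libraries, 2 of them carrying the 29-base stretch. Among them were a TRBV17 clonotype with 1551 thymus reads and 1 spleen read and a TRBV29 clonotype with 1 and 770. Whether single reads passed between the libraries was not tested.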

How the data were processed

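TCR transcripts of 2 sorted iT cell libraries were amplified with the SMARTer Mouse TCR a/b Profiling Kit, sequenced on a MiSeq and assembled by the authors with MiXCR against a gene library that is not named in the sources used here. The authors deposited for each clonotype the read count, not normalized, and the fraction of all reads of the library, which covers both chains and was not used. TCRβ clonotypes were taken by their J gene, with no read minimum, and shares were recomputed over TCRβ. Ends of V, D and J came from the deposited reference points. Gene classes, transcripts and coordinates came from GENCODE vM21 (GRCm38). Shares between gene classes of 1 library were compared by two-sided Fisher's exact test. The TRBV genes and every list were chosen with earlier results of these data known. Named were all 7 genes, their leading clonotype and J gene in each library, the 3 shared clonotypes with the most reads where fewer, and the 3 genes with the most similar J profile. Alternatives were read minimums of 2 and 10, tied V hits left out, merging of clonotypes 1 base apart with 20 times the reads, productive clonotypes, equal reads, and, after seeing the data, a V score of at least 100, RefSeq classes, and genes or large clonotypes left out, also with weighting by reads. The tests and merging were tested on simulated data. Python 3.11.15, pandas 2.3.3 and scipy 1.17.1 were used.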

Additional observations from a re-analysis of the deposited data

How the results depend on the processing

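No paired analysis was possible because each tissue had 1 library, and for the same reason no replicate could be left out. Counted over productive clonotypes only, the 7 genes made up 9.05% of thymus and 9.03% of spleen clonotypes, and 5.47% and 2.29% of reads. By reads they made up 6.21% and 2.53% with a V score of at least 100, 4.67% and 2.15% without the most abundant member clonotype, and 8.58% and 5.81% without the most abundant TCRβ clonotype. The lower productive share of TRBV24 kept its direction and passed the test in both libraries under each alternative that kept TRBV24 as the pseudogene. RefSeq classes put TRBV29 in that place. The difference, pseudogene minus other members, was then 29.6 points in the thymus and 33.7 in the spleen instead of -34.1 and -45.4. The lower productive share of the members kept its direction under all alternatives tried, and was smallest by clonotypes without TRBV24, at -12.6 and -7.39 points. The higher TRBJ1 share of the thymus was 1.65 points among productive clonotypes (p = 0.752, two-sided Fisher's exact test), and the cause was not tested; weighted by reads, with no test, it was 49.8 points in the thymus and 39.0 in the spleen, and 39.5 and 18.9 without the most abundant TCRβ clonotype of each library. The 49 shared clonotypes became 39 with at least 10 reads in each library. Of 280 values of single genes under alternatives, 8 left their interval, among them the clonotype shares of TRBV23 with a V score of at least 100, 0.258% and 0.326%. The read counts bound counting error, not the spread between mice, which 1 library per tissue cannot show.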

Other observations

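Of the 26 TRBV genes with clonotypes, 4 are V pseudogenes in GENCODE. Besides TRBV24 these were TRBV8, TRBV22 and TRBV28. TRBV22 had 3 thymus and 5 spleen clonotypes, 2 of them productive in each, with 287 and 337 reads. TRBV8 had 5 and 8 clonotypes with 13 and 32 reads, all with V scores under 100, and 4 and 6 of them carried the 29-base stretch. TRBV28 had 1 clonotype of 1 read in each library. TRBV24, with 3706 and 4207 reads, was thus the only one of the 4 with more than 5 clonotypes of V score of at least 100. Among the genes outside the 7 that GENCODE lists as functional, TRBV4 had the lowest productive shares, 51.3% (40.3 to 62.2%) of 76 clonotypes in the thymus and 52.6% (39.9 to 65.0%) of 57 in the spleen.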
